A study of Mus musculus with 6 samples.

Results

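The 71 genes described here encode the heat shock proteins and the DnaJ proteins, the main protein-folding helpers of the cell. They were taken by gene symbol from a table of 24520 gene identifiers: the Hsp70 family (Hspa, with its relative Hsph1), the Hsp90 family, the mitochondrial chaperonin pair Hspd1 and Hspe1, the small heat shock proteins (Hspb) and the DnaJ families A, B and C, without pseudogenes. The symbol rule used no measured value, but the genes were chosen with earlier results of these data known. By textbook location, 35 of them work in the cytosol or nucleus, 14 in the endoplasmic reticulum (ER) and 10 in mitochondria, and 12 belong to vesicles, cilia or no single compartment. RNA came from lung endothelial cells, the lining cells of blood vessels, sorted by fluorescence from Dnmt3a knockout (KO) and wild-type (WT) mice, with 3 libraries labelled KO and 3 labelled WT. Dnmt3a encodes one of the enzymes that place new DNA methylation. The comparison asks which RNA levels differ between endothelial cells under the KO label and under the WT label. The allele, any Cre driver, the strain and age of the mice, the sort gate and whether each library came from its own animal are not stated in the labels, so p-values here reflect how far these libraries differ among themselves, which may be technical.

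Hsp70 proteins bind short unfolded stretches of other proteins and release them in a cycle driven by ATP. DnaJ proteins, also called Hsp40 or J proteins, deliver the client and trigger ATP hydrolysis, nucleotide exchange factors such as Hsph1 and the Bag proteins reset the cycle, and Hsp90 finishes the folding of many kinases and receptors. Most cells keep a large constant supply from genes such as Hspa8 and Hsp90ab1. A second, inducible supply, with Hspa1a and Hspa1b as the classical examples, is switched on within minutes by heat shock factor HSF1, which binds repeats of the unit GAA in alternating orientation (heat shock elements). The ER and the mitochondria hold their own Hsp70, Hsp90 or chaperonin and J proteins.

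The libraries held 28136194 to 31402838 estimated counts under the KO label and 29482747 to 39999172 under the WT label. Dnmt3a itself (ENSMUSG00000020661, mm10 chr12:3806007-3914443, plus strand) ran against the labels. It lay at 172, 161 and 161 CPM (counts scaled to library size with TMM factors) in KO-labelled libraries and at 37.6, 36.5 and 31.8 CPM in WT-labelled libraries, a log2 fold change of 2.22 ± 0.11 (SE; edgeR's quasi-likelihood test gave an adjusted p of 0.00157). The files hold 1 value per gene, so which exons the reads came from was not examined, and every direction below is between libraries as labelled. Endothelial markers summed to 13870 to 16560 CPM in KO-labelled and 14080 to 17560 CPM in WT-labelled libraries. Transcripts of other lung cells varied widely. Alveolar type 2 markers summed to 782 to 3701 CPM in KO-labelled and 335 to 9540 CPM in WT-labelled libraries, pericyte and smooth muscle markers to 141 to 627 CPM and 122 to 510 CPM, and leukocyte markers to 36.5 to 191 CPM and 24.9 to 429 CPM. Fibroblast markers did not overlap, with 327 to 475 CPM in KO-labelled and 170 to 244 CPM in WT-labelled libraries. Of these 10 markers 8 had a positive fold change, with a median of 0.97 on the log2 scale. An unadjusted p under 0.05 by edgeR was found for 6 of 10 (60%), against 12.6% of all tested genes. EdgeR called 1 of them and DESeq2, another count model, 5 (50%), all higher under the KO label. The shares of all genes called higher were 0.0205% and 1.41%. In each of these lists every marker was detected in at least 1 library, except for the leukocyte markers Marco and Csf1r, which were at 0 in all 6.

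In these cells the chaperones as a family sat at nearly the same level under both labels. The largest fold changes among them were those of the stress-inducible Hsp70 pair. No chaperone gene passed an adjusted p of 0.05 in edgeR's quasi-likelihood test, which called 5 of 14667 genes (0.0341%; 0.0205% higher and 0.0136% lower under the KO label); the smallest adjusted p among the chaperones was 0.282, and 4 of them had an unadjusted p under 0.05. For Hspa1a and Hspa1b the log2 fold changes of KO over WT were 1.55 and 2.23, and their edgeR p-values ranked 224 and 191 among 14667 genes. DESeq2, a second count model, called these 2 genes and no other chaperone (3.08% of 65). It called 2.68% of all genes (1.41% higher, 1.27% lower under the KO label). Fold changes under 1 in size on the log2 scale were found for 96.9% of tested chaperones, against 93.2% of all tested genes. Around them, 42 of the 65 chaperone genes that passed the expression filter (64.6%) had a log2 fold change between -0.25 and 0.25, against 51.5% of all tested genes.

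The start regions of 3 genes are shown because these genes had the 3 smallest p-values among the chaperones, all higher under the KO label, and because Hspa1a and Hspa1b are nearly one sequence. Each run is the 250 bases before a RefSeq start site (GRCm38.p6, the assembly of mm10), 5′ to 3′ on the minus strand, at chr17:34972157-34972406 for Hspa1a, chr17:34959239-34959488 for Hspa1b and chr3:152193846-152194095 for Dnajb4. Capitals mark a pair of heat shock units, GAANNTTC or TTCNNGAA, searched on both strands.
Hspa1a: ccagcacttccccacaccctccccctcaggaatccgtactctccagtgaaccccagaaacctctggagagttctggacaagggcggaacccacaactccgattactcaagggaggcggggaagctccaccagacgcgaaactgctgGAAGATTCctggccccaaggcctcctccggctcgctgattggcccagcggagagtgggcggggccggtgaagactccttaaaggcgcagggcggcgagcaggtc
Hspa1b: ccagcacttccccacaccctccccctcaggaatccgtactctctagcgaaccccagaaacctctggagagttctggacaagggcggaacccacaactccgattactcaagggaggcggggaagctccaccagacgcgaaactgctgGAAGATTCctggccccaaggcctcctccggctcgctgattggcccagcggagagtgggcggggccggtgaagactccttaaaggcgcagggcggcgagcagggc
Dnajb4: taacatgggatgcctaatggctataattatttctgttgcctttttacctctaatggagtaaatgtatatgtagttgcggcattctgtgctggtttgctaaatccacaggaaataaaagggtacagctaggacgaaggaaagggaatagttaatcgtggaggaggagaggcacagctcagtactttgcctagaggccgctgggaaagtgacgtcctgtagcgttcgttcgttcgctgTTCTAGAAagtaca
The Hspa1a and Hspa1b runs were identical at 247 of 250 positions, with the marked motif 96 bases before the start in both. In Dnajb4 the motif ended 6 bases before a start that lies inside the gene, and the window at its outer start held none.

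The same motif was counted in every RefSeq window that reaches from 250 bases before to 50 bases after a start. Of the chaperone symbols, 57 had a window and 14 had none, and 16 of the 57 genes (28.1%) held the motif, against 17.0% of all genes with a window. They were Dnaja1, Dnaja4, Dnajb4, Dnajb6, Hspa1a, Hspa1b, Hspb1, Hspb3, Hspb6, Hspb8 and Hsph1 of the cytosol, Dnajc10 of the ER, Hspd1 and Hspe1 of the mitochondrion, whose windows overlap, and Dnajc27 and Dnajc5g. By compartment that is 11 of 30 cytosolic genes, 1 of 12 ER genes and 2 of 7 mitochondrial genes. A run of 3 alternating units was rarer, in 4 chaperone genes (Dnajb6, Hsph1, Hspd1 and Hspe1; 7.02%) against 0.66% of all genes. Chaperone windows held a median of 23 CpG sites, the sequence that DNA methyltransferases act on, against 7 for all windows. A match describes letters in a window and shows no binding.

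Hspa1a (ENSMUSG00000091971, mm10 chr17:34969190-34972156, minus strand) and Hspa1b (ENSMUSG00000090877, chr17:34956436-34959238, minus strand) encode the same inducible cytosolic Hsp70. Hspa1a lay at 27.4, 40.9 and 37.7 CPM in KO-labelled libraries 1, 2 and 3 and at 7.15, 20.0 and 9.17 CPM in WT-labelled libraries 1, 2 and 3. Every KO-labelled library was above every WT-labelled one, with WT library 2 the nearest. The log2 fold change was 1.55 ± 0.38 (SE; by edgeR, adjusted p = 0.282, unadjusted p = 0.00447). Hspa1b was scarcer, at 2.57, 7.79 and 8.09 CPM in KO-labelled and 1.82, 1.29 and 0.822 CPM in WT-labelled libraries. The groups did not overlap, but KO library 1 was close to the WT-labelled range. Its log2 fold change was 2.23 ± 0.53 (SE; by edgeR, adjusted p = 0.282, unadjusted p = 0.00370). In DESeq2 the adjusted p was 0.00417 for Hspa1a and 0.00493 for Hspa1b.

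How the reads divide between these copies is uncertain, because 63.8% of the 31-base words of Hspa1a also occur in Hspa1b and 67.7% of those of Hspa1b occur in Hspa1a. Hspa1b took 8.56%, 16.0% and 17.7% of the pair's estimated counts in KO-labelled libraries and 20.3%, 6.05% and 8.22% in WT-labelled libraries. Added together, the pair gave 30.0, 48.7 and 45.8 CPM in KO-labelled and 8.97, 21.3 and 9.99 CPM in WT-labelled libraries, again without overlap. Fitted as a single gene, the pair differed by a log2 fold change of 1.63 ± 0.36 (SE; by edgeR, adjusted p = 0.250). Leaving out single libraries moved the Hspa1a value between 1.27 (without WT 1) and 2.11 (without WT 2) and the Hspa1b value between 1.98 and 2.59. On the log2(TPM + 1) scale, which compresses low genes, Hspa1b stood at 1.36. Hspa1l, a neighbour of Hspa1a on chromosome 17 known mainly from testis, lay at 3.62, 2.31 and 2.13 CPM in KO-labelled and 3.71, 3.28 and 3.02 CPM in WT-labelled libraries. The labels overlapped, with a log2 fold change of -0.31 ± 0.34 (SE). Of the 31-base words of Hspa1l, 71.7% also occur in other annotated genes.

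**Figure D1:**
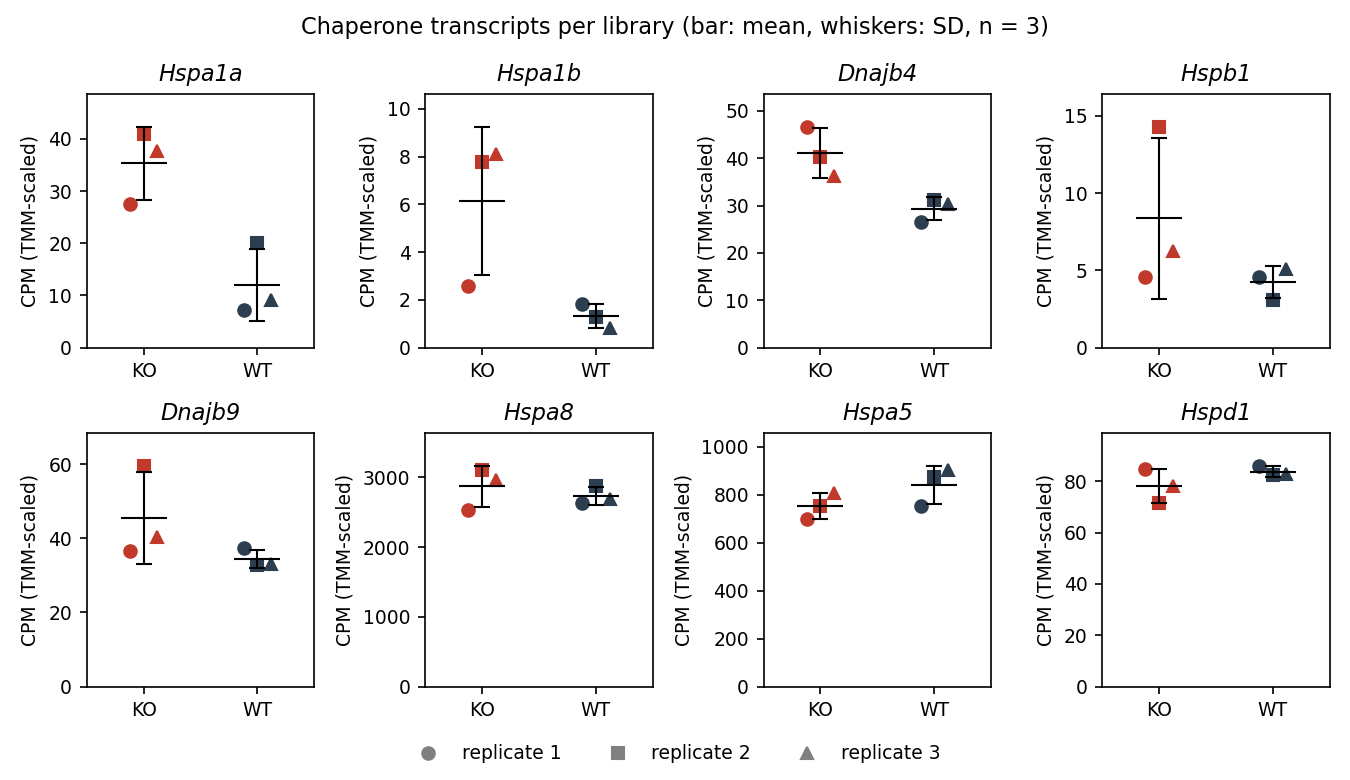
TMM-scaled CPM (vertical axes, each from 0) of 8 chaperone genes in the 3 KO-labelled and 3 WT-labelled libraries; symbols mark the replicate number, the long bar is the mean and whiskers are the SD (n = 3). Hspa1a, Hspa1b and Dnajb4 have no overlap between the labels, while Hspa8, Hspa5 and Hspd1 overlap and the high Hspb1 and Dnajb9 points are KO library 2.

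Another measured list was also mostly higher under the KO label. The list of 36 immediate-early genes, which respond quickly to stress and tissue handling and share no gene with the chaperones, summed to 8846, 11410 and 11760 CPM in KO-labelled and 7477, 10240 and 9151 CPM in WT-labelled libraries. WT library 2, the highest WT library for the Hspa1 pair, was also the highest WT library for this list. KO library 1 was the lowest KO library for both. For the pair WT library 2 lay below KO library 1, but it lay above KO library 1 for the list. Of its 35 tested genes, 32 had a positive fold change, with a median of 0.59 on the log2 scale against 0.01 for all tested genes; 15 higher and 1 lower had an unadjusted p under 0.05, edgeR called none, and DESeq2 called 11 higher. These are 45.7% at that p against 12.6% of all tested genes, and 31.4% called higher by DESeq2 against 1.41%. The 3 with the smallest p were Mcl1, a survival factor, at 0.66, Junb, an AP-1 subunit, at 1.09, and Gadd45g, a stress-response gene, at 1.73. Its part in the Hspa1a and Hspa1b difference was not tested, and neither was that of the fibroblast markers given above. In bulk RNA such as this, fewer cells with a transcript and less of it per cell cannot be told apart.

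Dnajb4 (ENSMUSG00000028035, mm10 chr3:152178511-152210302, minus strand), a cytosolic J protein that partners Hsp70, was the third of the group. It lay at 46.6, 40.2 and 36.2 CPM in KO-labelled and 26.5, 31.1 and 30.4 CPM in WT-labelled libraries. The labels did not overlap and the spread was small. The log2 fold change was 0.48 ± 0.14 (SE; by edgeR, adjusted p = 0.299), between 0.38 and 0.57 over all alternatives. At an unadjusted p under 0.05, 4 of 65 chaperones (6.15%) were found, Hspa1a, Hspa1b and Dnajb4 higher and Dnajc18 lower, against 12.6% of all tested genes (6.88% higher, 5.77% lower). By CPM without overlap, 10 of 65 chaperones (15.4%) separated the labels, against 20.3% of all tested genes. Hspa1a, Hspa1b, Dnajb4, Dnajb13 and Dnaja2 were the 5 higher, and Dnajc18, Dnajc30, Dnajc12, Dnajb3 and Dnajc19 the 5 lower (10.8% and 9.44% of all tested genes). Both shares were below the background. Dnajb3 averaged only 14 counts, with an unadjusted p of 0.260 by edgeR. In the deposited TPM, which carry no TMM factor, the split was 10 higher and 3 lower, 20.0% of 65 against 20.2% of all tested genes (13.8% higher, 6.37% lower). There Dnajb1, Hspb1, Dnajb9, Dnajc1 and Dnajc3 joined the higher genes, and Dnajc19 and Dnajc30 overlapped.

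**Figure D2:**
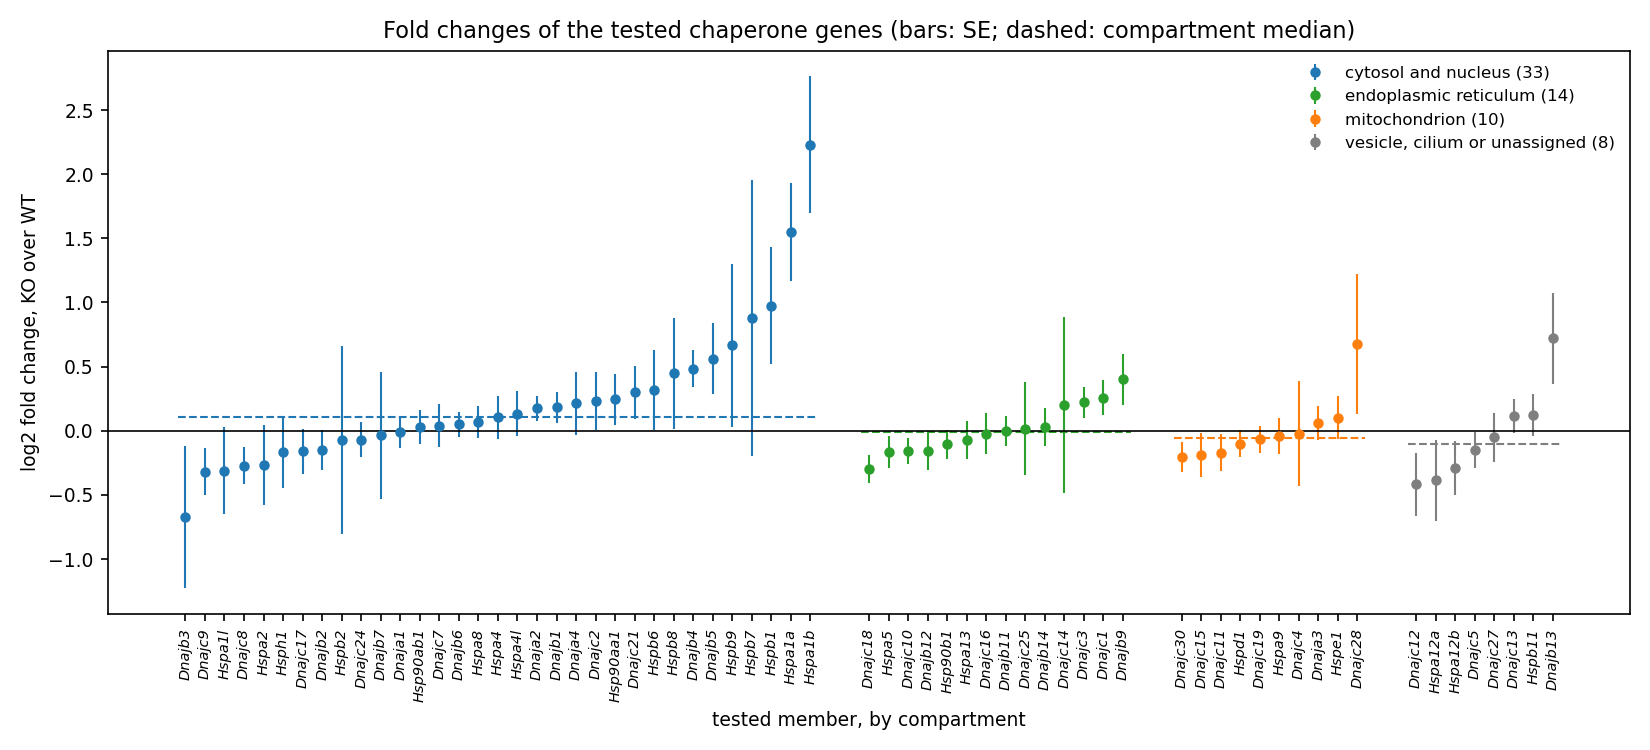
Log2 fold change of KO-labelled over WT-labelled libraries (vertical axis) for the 65 tested chaperone genes, ordered within their compartment; bars are SE and dashed lines the compartment medians. Hspa1a and Hspa1b are the 2 cytosolic genes above 1, and the ER and mitochondrial points lie close to 0 apart from Dnajb9 and Dnajc28.

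The 3 compartments differed little in their medians. Of 33 tested cytosolic and nuclear genes, 21 had a positive and 12 a negative fold change, with a median of 0.10 on the log2 scale. Of 14 ER genes, 6 were positive and 8 negative, with a median of -0.01. Of 10 mitochondrial genes, 3 were positive and 7 negative, with a median of -0.05, and of 8 other genes 3 were positive and 5 negative, with a median of -0.10. Among all tested genes 50.9% were positive and 49.1% negative, and the median was 0.01. The cytosolic median was 0.03 without KO library 2 and 0.19 without WT library 3. On the TPM scale, which is per transcript length, cytosolic genes summed to 5008, 5174 and 5497 TPM in KO-labelled and 4772, 5139 and 4599 TPM in WT-labelled libraries, so the labels overlapped. The ratio of cytosolic to ER chaperone TPM was 3.96, 4.27 and 4.31 in KO-labelled and 3.93, 3.84 and 3.62 in WT-labelled libraries, without overlap but with KO library 1 only just above WT library 1. No test was made of either ratio or median.

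In level, a few constitutive genes made up most of the chaperone RNA. All 71 genes together took 0.813%, 0.830% and 0.871% of the deposited TPM in KO-labelled and 0.780%, 0.845% and 0.757% in WT-labelled libraries. Hspa8, the constitutive cytosolic Hsp70 that also strips clathrin from vesicles, averaged 2516 ± 192 TPM in KO-labelled and 2285 ± 183 TPM in WT-labelled libraries (SD, n = 3 each) and alone made up 31.6% to 37.0% of chaperone TPM. Next came Hsp90ab1, the constitutive cytosolic Hsp90, at 1202 ± 154 TPM and 1121 ± 76.7 TPM, then Hspa5, the ER Hsp70 known as BiP, at 526 ± 24.0 TPM and 560 ± 43.5 TPM. Dnajc8, a spliceosome J protein, and Hsp90b1, the ER Hsp90 known as Grp94, followed at 409 and 398 TPM in KO-labelled and 468 and 407 TPM in WT-labelled libraries, and their spreads overlapped. The 5 most abundant genes held 68.2% to 69.8% of chaperone TPM in every library. Dnaja1, Hspa12b, Hsp90aa1, Dnajb6 and Hspe1 completed the 11 genes with a mean of at least 100 TPM together with Dnajc19, at 99.0 TPM in KO-labelled and 106 TPM in WT-labelled libraries. The inducible pair stayed far below: the TPM of Hspa8 was 116, 87.8 and 89.3 times the sum of Hspa1a and Hspa1b in KO-labelled and 405, 186 and 371 times that sum in WT-labelled libraries.

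**Figure D3:**
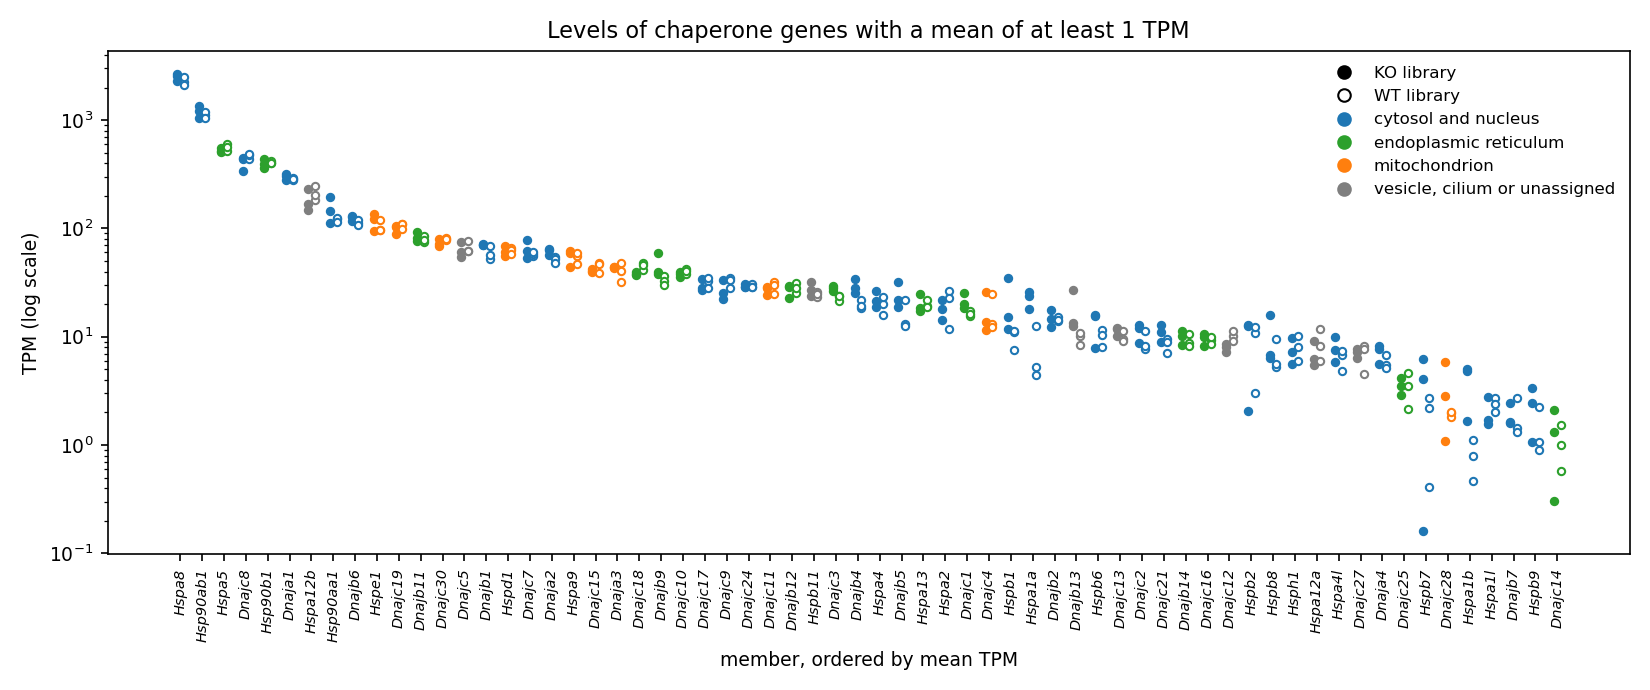
TPM on a log axis in each library for the chaperone genes with a mean of at least 1 TPM, ordered by that mean; filled points are KO-labelled and open points WT-labelled libraries, and colours give the compartment. Hspa8 and Hsp90ab1 stand highest, and the labels separate visibly for Hspa1a and Hspa1b but not for the abundant genes.

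At the low end, 7 genes averaged under 1 TPM and 6 did not pass the expression filter. Hspb3, Dnajc5b and Dnajc5g had 0 counts in all 6 libraries, for which 3 counts, or 0.0795 to 0.102 CPM per library, is the level that a count of 0 allows. Dnajb8 had 1 count in all, in KO library 3. Dnajc22 had 8 counts in WT library 3 and none elsewhere. Dnajc6, a neuronal clathrin-uncoating J protein, had 3, 2 and 7 counts in KO-labelled and 0, 0 and 6 counts in WT-labelled libraries.

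The constitutive cytosolic machinery showed no separation. Hspa8 lay at 2537, 3107 and 2969 CPM in KO-labelled and 2636, 2877 and 2686 CPM in WT-labelled libraries, a log2 fold change of 0.07 ± 0.13 (SE). Hsp90ab1 lay at 1611, 1474 and 1919 CPM and at 1586, 1695 and 1616 CPM, a log2 fold change of 0.03 ± 0.13 (SE) whose sign turned to -0.08 without KO library 3. Hsp90aa1, the stress-responsive Hsp90, had one high library, with 221, 181 and 317 CPM in KO-labelled and 200, 204 and 203 CPM in WT-labelled libraries. WT-labelled values were nearly identical and lay inside the KO-labelled range. Of the 31-base words, 44.8% for Hspa8 and 51.5% for Hsp90aa1 also occur in other annotated genes, so these levels are less certain. Among other genes that HSF1 is known to drive, Hsph1, the Hsp110 exchange factor, lay at 10.8, 19.6 and 14.8 CPM in KO-labelled and 12.2, 20.7 and 17.9 CPM in WT-labelled libraries. Dnajb1, the classical stress-inducible Hsp40, lay at 118, 121 and 122 CPM in KO-labelled and 91.7, 119 and 107 CPM in WT-labelled libraries, a log2 fold change of 0.18 ± 0.12 (SE; by edgeR, adjusted p = 0.544). The log2 fold change of Hsph1 was -0.17 ± 0.28 (SE), smaller in size than its SE, so its sign is not resolved. That of Hsp90aa1 was 0.24 ± 0.20 (SE). Hsph1, Dnajb1 and Hsp90aa1 were looked up after their values were seen, and HSF1 targets were not described as a set.

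Among the remaining cytosolic J proteins, Dnaja2, a partner of Hspa8, lay at 97.9, 90.8 and 104 CPM in KO-labelled and 88.4, 85.4 and 85.2 CPM in WT-labelled libraries. The labels did not overlap, by a small margin, and the log2 fold change was 0.18 ± 0.10 (SE; by edgeR, adjusted p = 0.480). Dnajb5, a J protein close to Dnajb4, lay at 23.2, 28.2 and 41.2 CPM in KO-labelled and 17.0, 28.0 and 17.8 CPM in WT-labelled libraries. Its log2 fold change of 0.56 ± 0.28 (SE; by edgeR, adjusted p = 0.436) became 0.29 without KO library 3 and 0.83 without WT library 2. Dnajc8 was on the other side, at 295, 244 and 321 CPM in KO-labelled and 312, 343 and 383 CPM in WT-labelled libraries, a log2 fold change of -0.27 ± 0.14 (SE; by edgeR, adjusted p = 0.459). Dnajc9, a histone chaperone that recruits Hsp70, had 27.6, 19.0 and 22.2 CPM in KO-labelled and 24.3, 30.3 and 31.4 CPM in WT-labelled libraries, a log2 fold change of -0.32 ± 0.18 (SE; by edgeR, adjusted p = 0.492). Both genes overlapped between the labels.

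Small heat shock proteins are ATP-independent holdases that keep unfolding proteins soluble. Of 7 tested genes with an Hspb symbol, 6 had a positive fold change, with a median of 0.45 on the log2 scale. These 7 include Hspb11 at 0.12, which carries the name but is a subunit of intraflagellar transport. None of the 7 reached an unadjusted p of 0.05 by edgeR and none separated the labels in CPM. In TPM Hspb1 did. Hspb1, known as Hsp27 in human and Hsp25 in mouse, lay at 4.56, 14.3 and 6.26 CPM in KO-labelled and 4.56, 3.11 and 5.09 CPM in WT-labelled libraries. KO library 2 carried most of its log2 fold change of 0.97 ± 0.45 (SE; by edgeR, adjusted p = 0.417), which was 0.35 without that library. A large share of its 31-base words, 55.4%, also occur in other annotated genes, chiefly a pseudogene. Hspb8, a partner of Bag3 in clearing misfolded proteins, was likewise highest in KO library 2, at 5.85, 15.6 and 6.63 CPM in KO-labelled and 9.40, 5.15 and 6.04 CPM in WT-labelled libraries.

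Hspb2, Hspb6 and Hspb7, small heat shock proteins best known from muscle, were low in the same 2 libraries as muscle transcripts. Hspb7 lay at 6.12, 9.77 and 0.271 CPM in KO-labelled and 4.32, 0.677 and 3.76 CPM in WT-labelled libraries, a log2 fold change of 0.88 ± 1.08 (SE). Added together the 3 genes gave 19.0, 23.0 and 6.26 CPM in KO-labelled and 14.7, 6.80 and 14.5 CPM in WT-labelled libraries. The 10 pericyte and smooth muscle markers summed to 627, 555 and 141 CPM in KO-labelled and 372, 122 and 510 CPM in WT-labelled libraries, so that KO library 3 and WT library 2 were the 2 lowest for both. The 10 cardiac muscle markers summed to 28.9 to 116 CPM in KO-labelled, highest in KO library 2, and 24.9 to 41.1 CPM in WT-labelled libraries. The part of these cells in the Hspb values was not tested. Hspb2 also shares 30.2% of its exon bases with Cryab, and strand was not stated to be kept, so their reads may be mixed.

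**Figure D4:**
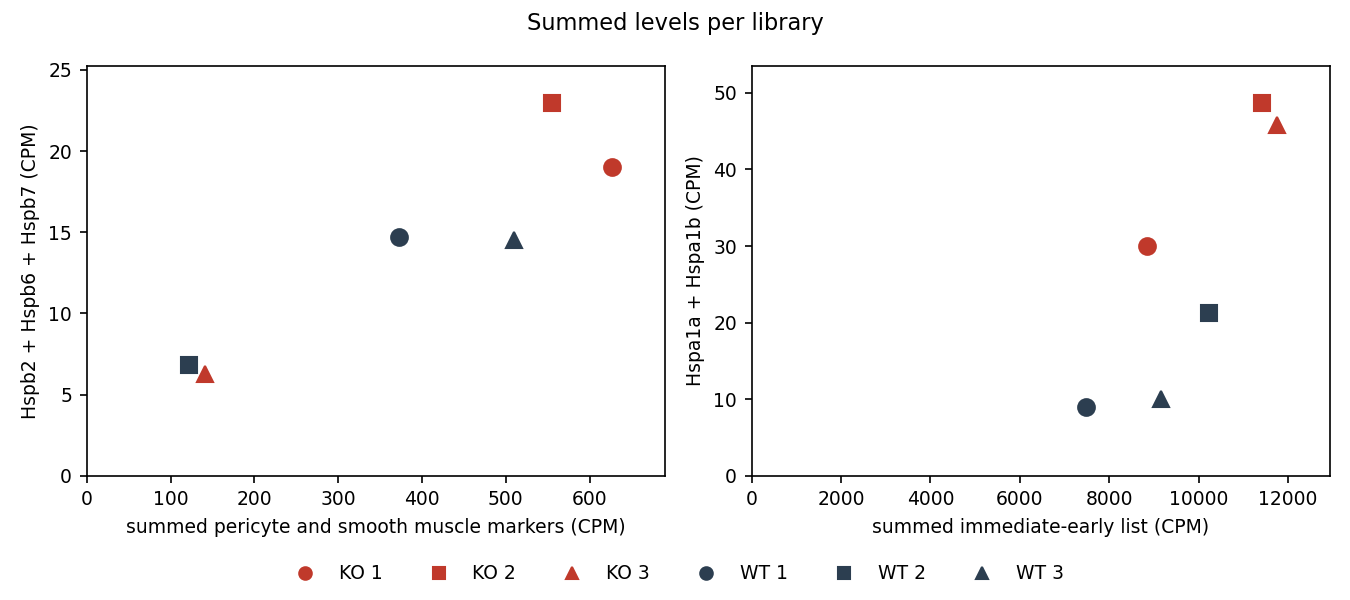
Left, summed CPM of Hspb2, Hspb6 and Hspb7 (vertical) against summed CPM of 10 pericyte and smooth muscle markers (horizontal), 1 point per library; right, Hspa1a plus Hspa1b against the summed immediate-early list. At left KO 3 and WT 2 lie together at the bottom, under 7 CPM; at right the 3 KO-labelled points lie at 30.0 CPM and above and the 3 WT-labelled points at 21.3 CPM and below.

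In the ER, the chaperones of highest level had slightly negative fold changes, with overlap between the labels. Hspa5 lay at 698, 752 and 806 CPM in KO-labelled and 752, 873 and 902 CPM in WT-labelled libraries, a log2 fold change of -0.16 ± 0.12 (SE; by edgeR, adjusted p = 0.604). Hsp90b1 lay at 652, 565 and 620 CPM in KO-labelled and 633, 659 and 685 CPM in WT-labelled libraries, a log2 fold change of -0.11 ± 0.11 (SE). Dnajb11, the ERdj3 cofactor of BiP, was level, with -0.0024 ± 0.12 (SE) on the log2 scale. The ER gene with the smallest p was Dnajc18 (ENSMUSG00000024350), a J protein of the ER membrane. It lay at 113, 117 and 124 CPM in KO-labelled and 130, 149 and 156 CPM in WT-labelled libraries, without overlap, a log2 fold change of -0.30 ± 0.11 (SE; by edgeR, adjusted p = 0.354).

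Other J proteins of the ER leaned the other way. Dnajb9, the ERdj4 cofactor of BiP and a known target of the unfolded protein response, lay at 36.4, 59.6 and 40.3 CPM in KO-labelled and 37.3, 32.9 and 33.1 CPM in WT-labelled libraries. KO library 2 was the high one, and the log2 fold change of 0.40 ± 0.20 (SE; by edgeR, adjusted p = 0.434) was 0.16 without it. Dnajc3, an inhibitor of the stress kinase PERK and cofactor of BiP, lay at 77.7, 91.4 and 87.7 CPM in KO-labelled and 73.9, 65.4 and 80.8 CPM in WT-labelled libraries, a log2 fold change of 0.22 ± 0.12 (SE; by edgeR, adjusted p = 0.468). Dnajc1, a membrane J protein near the translocon, had 52.4, 46.8 and 62.4 CPM in KO-labelled and 47.7, 42.1 and 45.4 CPM in WT-labelled libraries, a log2 fold change of 0.26 ± 0.14 (SE; by edgeR, adjusted p = 0.458). In CPM the labels overlapped for each of these 3 genes, whereas in TPM every KO-labelled library was above every WT-labelled one for all 3, for Dnajc3 with 26.5 to 29.7 TPM against 21.2 to 23.9 TPM.

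Mitochondrial chaperones were close to level. Hspd1, the Hsp60 ring, lay at 84.6, 71.6 and 78.3 CPM in KO-labelled and 86.1, 82.5 and 82.7 CPM in WT-labelled libraries, a log2 fold change of -0.10 ± 0.10 (SE). Of the 31-base words of Hspd1, 53.1% also occur in other annotated genes. Its lid Hspe1, or Hsp10, lay at 37.7, 30.7 and 44.4 CPM in KO-labelled and 39.3, 31.6 and 34.4 CPM in WT-labelled libraries, with a log2 fold change of 0.10 ± 0.17 (SE) that was -0.04 without KO library 3. Hspa9, the mitochondrial Hsp70 known as mortalin, had a log2 fold change of -0.04 ± 0.14 (SE). In CPM, though not in TPM, Dnajc30 and Dnajc19 were lower in every KO-labelled library than in any WT-labelled one. Dnajc19, a J protein of the import motor, lay at 33.8, 35.0 and 34.2 CPM in KO-labelled and 36.2, 36.2 and 35.5 CPM in WT-labelled libraries, a log2 fold change of -0.07 ± 0.11 (SE). Dnajc30 lay at 38.9, 45.0 and 39.1 CPM in KO-labelled and 45.2, 47.0 and 49.6 CPM in WT-labelled libraries, a log2 fold change of -0.20 ± 0.12 (SE; by edgeR, adjusted p = 0.485), and shares 26.3% of its exon bases with Bud23 on the opposite strand.

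Outside these compartments, Hspa12b, a distant Hsp70 relative known for its enrichment in endothelium, was abundant and variable. It lay at 222, 372 and 266 CPM in KO-labelled and 297, 394 and 361 CPM in WT-labelled libraries, a log2 fold change of -0.29 ± 0.21 (SE; by edgeR, adjusted p = 0.578) that was -0.52 without KO library 2 and -0.15 without KO library 1. Dnajb13, a J protein of the axoneme, lay at 5.85, 12.6 and 6.23 CPM in KO-labelled and 5.26, 4.03 and 5.65 CPM in WT-labelled libraries. The labels did not overlap, and the log2 fold change of 0.72 ± 0.35 (SE; by edgeR, adjusted p = 0.434) was 0.28 without KO library 2; 11.2% of its exon bases lie opposite Ucp2. Airway and ciliated cell markers, taken as a single list, summed to 465, 642 and 490 CPM in KO-labelled and 1031, 111 and 692 CPM in WT-labelled libraries. The part of these cells in the Dnajb13 values was not tested. Dnajc12 lay at 4.26, 5.25 and 5.42 CPM in KO-labelled and 6.42, 5.79 and 7.71 CPM in WT-labelled libraries, a log2 fold change of -0.42 ± 0.25 (SE; by edgeR, adjusted p = 0.503). Dnajc5, the cysteine string protein of secretory vesicles, and Hspb11, a subunit of intraflagellar transport despite its name, differed by log2 fold changes of -0.15 ± 0.14 and 0.12 ± 0.16 (SE).

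Libraries within a label were not alike across the family. KO library 2 had the highest CPM of the 6 libraries for 16 of 65 chaperones (24.6%) and KO library 3 for 17 (26.2%), against 21.0% and 18.9% of all tested genes. KO library 1 was highest for 2 chaperones (3.08%), against 14.4% of all tested genes, and WT library 3 for 15. Hspb1, Hspb8, Dnajb9, Dnajb13 and Hspa1a were among the genes with KO library 2 on top, and Hsp90aa1, Hsp90ab1, Dnajb5 and Hspe1 among those with KO library 3.

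Co-chaperones and heat shock factors were described with a list that shares Ier5 with the immediate-early list. It also shares Hyou1 and Sil1 with the list of ER folding enzymes given below. The list held 43 genes, 42 of them tested. Of these, 25 had a positive and 17 a negative fold change, with a median of 0.04 on the log2 scale; edgeR called none, 1 higher and 3 lower had an unadjusted p under 0.05, DESeq2 called 1 in each direction, and 4 higher and 7 lower did not overlap between the labels in CPM. These are 9.52% at that p against 12.6% of all tested genes, and 26.2% without overlap against 20.3%; in TPM 4 higher and 3 lower were without overlap (16.7% against 20.2%). The largest difference was that of Bag2, an inhibitor of the ubiquitin ligase Stub1 and exchange factor of Hsp70, which lay at 12.1, 10.1 and 7.85 CPM in KO-labelled and 16.9, 25.2 and 27.3 CPM in WT-labelled libraries. Its log2 fold change was -1.21 ± 0.25 (SE; by edgeR, adjusted p = 0.240, DESeq2 adjusted p = 0.00137). Ier5, which is known to bind HSF1, lay at 30.1, 38.0 and 58.9 CPM in KO-labelled and 21.2, 24.5 and 19.3 CPM in WT-labelled libraries, a log2 fold change of 0.97 ± 0.25 (SE; by edgeR, adjusted p = 0.282, DESeq2 adjusted p = 0.0243). Both separated the labels, in opposite directions. Stip1, the adaptor between Hsp70 and Hsp90, lay at 125, 125 and 117 CPM in KO-labelled and 144, 157 and 152 CPM in WT-labelled libraries, a log2 fold change of -0.30 ± 0.10 (SE; by edgeR, adjusted p = 0.324). Hsf1 and Bag3 were looked up after their values were seen, and had log2 fold changes of -0.04 ± 0.17 and 0.14 ± 0.17 (SE), both changing sign among the alternatives.

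The cytosolic chaperonin CCT and its cofactor prefoldin, which fold actin and tubulin, had 3 positive and 11 negative fold changes among 14 tested genes, with a median of -0.15 on the log2 scale. Neither tool called any of them and none had an unadjusted p under 0.05, yet 6 of 14 were lower in every KO-labelled library without overlap in CPM (42.9%, against 9.44% of all tested genes). In TPM only Cct5 and Pfdn4 of the 14 did so (14.3%, against 6.37%). Summed, the list gave 1889, 1781 and 1904 CPM in KO-labelled and 1975, 2067 and 2181 CPM in WT-labelled libraries. The smallest p-values belonged to Tcp1 and Cct5, subunits of the ring, and Pfdn4, with log2 fold changes of -0.25, -0.23 and -0.35. ER folding enzymes and unfolded protein response genes had 14 positive and 14 negative fold changes among 28 tested genes, with a median of -0.01; edgeR called none, 2 higher and 5 lower had an unadjusted p under 0.05, and DESeq2 called 2 lower, Serpinh1 and Pdia6. At that unadjusted p stood 7 of 28 genes (25%), against 12.6% of all tested genes, and 5 higher and 5 lower did not overlap in CPM (35.7% against 20.3%), or 8 higher and 3 lower in TPM (39.3% against 20.2%). Serpinh1, the collagen chaperone Hsp47, lay at 1526, 1309 and 1616 CPM in KO-labelled and 1792, 2169 and 2352 CPM in WT-labelled libraries, a log2 fold change of -0.50 ± 0.15 (SE; by edgeR, adjusted p = 0.300, DESeq2 adjusted p = 0.0408). Pdia6, a protein disulfide isomerase, lay at 472, 431 and 479 CPM in KO-labelled and 602, 581 and 669 CPM in WT-labelled libraries, a log2 fold change of -0.42 ± 0.11 (SE; by edgeR, adjusted p = 0.293, DESeq2 adjusted p = 0.0194). Derl2, part of ER-associated degradation, had the third smallest p in that list, with a log2 fold change of -0.37.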

How the data were processed

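RNA of sorted lung endothelial cells was amplified from small amounts with a SMARTer kit and read on an Illumina HiSeq, per the labels' protocols. The authors deposited estimated counts per gene, in whole numbers and without normalization, and TPM values per gene, whose columns sum to 875864 to 885609. The submitters' processing notes name kallisto and mm10; its version, the annotation, the step to genes and strandedness were not stated there. GENCODE M21 gave symbols and coordinates and names 24299 of 24520 identifiers. The rule matched 75 annotated genes, of which 3 are pseudogenes and 71 of the other 72 are in the tables. Hspa14 is not among these 71 genes and was not analysed here.

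Rounding changed 0 counts. Counts of all 6 libraries were fitted, KO over WT, with TMM factors and no covariate in R 4.3.3 by the quasi-likelihood test of edgeR 4.0.16, after filterByExpr, with Benjamini-Hochberg adjustment at 0.05 over 14667 genes. A standard error is the log2 fold change over the square root of F. DESeq2 1.42.0, other factors and filters, limma 3.58.1 on log2(TPM + 1) and log2(TPM + 0.1), the replicate number as a block, the summed Hspa1 pair and leaving out each library were alternatives; the 3-unit motif was added after the data were seen. Compartments are from textbook knowledge. Members, lists and tests were chosen with earlier results of these data known. Members were selected for full values as the 15 smallest p-values, counting genes that average 50 counts or more. The 3 of highest TPM per compartment and the Hspa1 pair were added, and the 3 smallest p-values of each other list. Fold changes without values per library are printed for Dnajb11, Dnajc5, Hspb11, Mcl1, Junb, Gadd45g, Tcp1, Cct5, Pfdn4 and Derl2. Hspa1l, Hsp90aa1, Hspd1, Hsph1, Dnajb1, Hspb7, Hspb8 and the members below the filter were given in full after their values were seen.

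Library totals of 28136194 to 39999172 estimated counts put 3 counts at 0.0795 to 0.102 CPM, which covers counting error only. Libraries of a label differed by more than sampling noise (44.8 to 99.2 chi-square units for each degree of freedom), so each library counted as 1 sample. Both count models were also run on counts simulated with edgeR's own dispersions, which cannot show which of them suits these data better.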

Additional observations from a re-analysis of the deposited data

How the results depend on the processing

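Among the alternatives DESeq2 alone called a chaperone, and the genes were Hspa1a and Hspa1b. Both had positive values under all alternatives that fitted them. DESeq2 called 406 genes, 2 of them chaperones, where edgeR called 5 and 0. Limma on log2(TPM + 0.1) called 9 genes; leaving out single libraries gave 1 to 4 and no chaperone. Compartment medians of log2 fold change ranged, with single libraries left out, from 0.026 to 0.19 in the cytosol, -0.083 to -0.0092 in the ER, -0.098 to -0.058 in mitochondria and -0.11 to -0.02 for the others. On log2(TPM + 1) they were 0.055 in the ER, -0.0061 in mitochondria and 0.0073 for the others, where the median of all genes was 0.06; on log2(TPM + 0.1) they were -0.0063 and 0.016 for the last 2, where it was 0.07. Uncalled values changed sign for Dnajb11, Hsp90ab1 and Hspe1 alone among the 25 chaperones selected for full values. Chaperones without overlap numbered 10 higher and 3 lower in TPM, against 5 and 5 in CPM, with 7 read differently.

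Deviations of same-numbered libraries correlated at 0.28, -0.05 and -0.18. Those of differently numbered libraries ran from -0.32 (KO 1 with WT 2) to 0.36 (KO 3 with WT 2). The labels do not state whether the numbers pair the samples, and so few libraries cannot settle it. With the replicate block edgeR called 0 genes, 4 chaperones had an unadjusted p under 0.05, and 1.67 and 2.15 were the log2 fold changes of Hspa1a and Hspa1b. With 3 libraries a label, differences within the spread of a chaperone could not be resolved. Low counts limit Dnajb3, Hspa1b, Hspb2 and Hspb7.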
